A study of Mus musculus with 17 samples.

Results

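Cirbp and Rbm3, the genes of the cold-inducible RNA-binding proteins, were followed across 17 mouse tumors. They are 2 of the 21931 genes that the deposited table lists. Both were found by gene symbol. Cirbp was selected on measured values, because its p in the comparison of the cryoablation group with the control group was among the smallest of the genes tested (rank 9 of 13005). Rbm3 was taken as the other member of the pair and had rank 5905 in the same comparison. The levels of both genes in that comparison are therefore a description, given without a test.

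The tumors were grown from MC38 cells, a mouse colon cancer line of wild-type genotype in the labels. In C57BL/6J mice aged 6 to 8 weeks, 500000 cells were placed under the skin on both flanks. In the cryoablation group (n = 8), a tumor was frozen with a probe on day 7, and the tumor of the opposite flank, which was not frozen, was taken 5 days after the freezing. The labels give 2 freezing cycles of 20 s. The study's text differs from the labels on the length of a cycle and on which group holds more tumors, and the labels were followed here. The tumors of the control group (n = 9) carry the same cell line, genotype and day in the labels, which describe no probe insertion for them. The labels do not say whether each tumor came from a separate mouse, and p-values then measure the spread between these tumors, which may be partly technical.

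CIRBP and RBM3 are small proteins with an RNA recognition motif at the start and a glycine-rich tail. Their messages and proteins accumulate when cells are kept a few degrees below body temperature and decline in fever or heat. Inside the cell they bind messenger RNA and affect its stability, translation and splicing, including that of clock genes. CIRBP that leaves stressed or dying cells can act on TLR4 and TREM1 of myeloid cells, and both genes also respond to hypoxia. In tumors, both proteins have been studied for their effects on growth and survival.

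Near the start of Cirbp, the RefSeq promoter window in the build GRCm38.p6 is shown because it holds the letters of the mild cold responsive element, TCCCCGCC, through which the transcription factor SP1 is known to act on this gene. The stretch covers the 250 bases before the annotated start, chr10:80167589-80167838 on the plus strand. The element and the GC boxes (GGGCGG on either strand) are in capitals.
Cirbp promoter: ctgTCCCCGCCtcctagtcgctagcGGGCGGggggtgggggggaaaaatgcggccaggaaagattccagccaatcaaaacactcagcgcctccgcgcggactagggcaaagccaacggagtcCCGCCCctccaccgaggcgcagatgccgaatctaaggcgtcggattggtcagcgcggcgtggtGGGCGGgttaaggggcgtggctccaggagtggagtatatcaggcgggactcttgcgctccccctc
The element began 247 bases before the start, and its letters occur on either strand in 5.38% of 32851 promoter windows of 300 bases. The window held 3 GC boxes, a motif found in 35.7% of the windows, and the element overlapped none of them. The clock E-box CACGTG and the paired heat shock units GAANNTTC and TTCNNGAA, found in 7.15%, 7.86% and 8.52% of the windows, were not in it. A second window listed for Cirbp, 300 bases long, held 4 GC boxes and no copy of the element. These matches describe letters only and say nothing of binding in the tumors.

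The coding stretch of the RNP1 octamer, the RNA-contacting core of the RNA recognition motif, is shown to compare the pair base by base. It was read from the principal GENCODE M21 transcripts (GRCm38), Cirbp-202 at chr10:80170051-80170074 on the plus strand and Rbm3-201 at chrX:8144621-8144644 on the minus strand, in exon 3 of 7 in each. Capitals mark the bases that differ.
Cirbp octamer: cgAggCtttggGttTGtcaccttT
Rbm3 octamer: cgGggTtttggCttCAtcaccttC
The 24 bases differed at 6 positions, which changed 1 of the 8 encoded residues. Over the whole coding sequences, of 172 and 154 codons, the translations were identical at 110 of 150 aligned residues (73.3%). Glycine, in which the tails of such proteins are rich, over the whole translation made up 20.3% of the residues in Cirbp and 20.1% in Rbm3.

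Total counts ranged from 14154687 to 17898672 in the control group and from 13524899 to 16847050 in the cryoablation group. Of 13005 genes tested with edgeR's quasi-likelihood test, 0 (0%) had an adjusted p under 0.05, as with DESeq2 and limma's voom, and 639 (4.91%) had an unadjusted p under 0.05, 1024 with DESeq2 and 1312 with voom. On the higher side in the cryoablation group were 487 genes (3.74%) and on the lower side 152 genes (1.17%) with edgeR. This balance depended on the method, as voom gave 615 higher and 697 lower. Cryoablation replicates 2, 4 and 5 stood apart from the other tumors. On the first principal component they lay between -32.2 and -25.9, whereas the other 14 tumors lay at -9.43 or above. For several of the results that rest on these 3 tumors, values without them are given as well. The labels call the line mesenchymal, and 7 mesenchymal markers summed to between 5718 and 9163 CPM (a gene's count relative to the total of its tumor, normalized by TMM), whereas 11 markers of colon epithelium summed to between 23.0 and 230 CPM. Of the latter, Cdx2 had at most 3 counts in every tumor, and keratin genes such as Krt19, with up to 91.6 CPM, were detected.

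Cirbp (ENSMUSG00000045193) is listed in the authors' table on chromosome 10 from 80001819 to 80008620 on the plus strand, with a length of 2604 bases. The control tumors held Cirbp within a narrow band, with a lowest level of 40.5, a median of 48.4 and a highest of 61.8 CPM. In the cryoablation group its level ran from 39.4 to 111 CPM, with a median of 68.9 CPM. The groups overlapped, and the difference between them was carried by the upper part of the cryoablation group. Of the 8 cryoablation tumors, 7 lay above the control median, 5 above the highest control tumor and 1 below the lowest control tumor.

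The highest levels of Cirbp were those of cryoablation replicates 2, 4 and 5, with 111, 106 and 89.1 CPM. Replicates 1 and 8 followed with 67.7 and 70.0 CPM, still above every control tumor. Replicates 3, 7 and 6 had 50.1, 55.0 and 39.4 CPM, within the control range or just under it. In this way the 8 tumors spread over the distance between the control level and 111 CPM.

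Across the 9 control tumors the mean of Cirbp was 48.5 CPM with an SD of 5.82, and across the 8 cryoablation tumors 73.5 CPM with an SD of 26.2. The fitted log2 fold change was 0.60 with a standard error of 0.17. Without cryoablation replicates 2, 4 and 5 the log2 fold change was 0.21 (standard error 0.13), and the 5 remaining tumors had a mean of 56.4 ± 12.7 CPM (SD, n = 5). In bulk tumors, more cells that express a gene and more of its RNA per cell cannot be told apart. Counting error alone came to between 2.72% and 4.15% of the count, for Cirbp counts of 581 to 1351 per tumor.

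**Figure D1:**
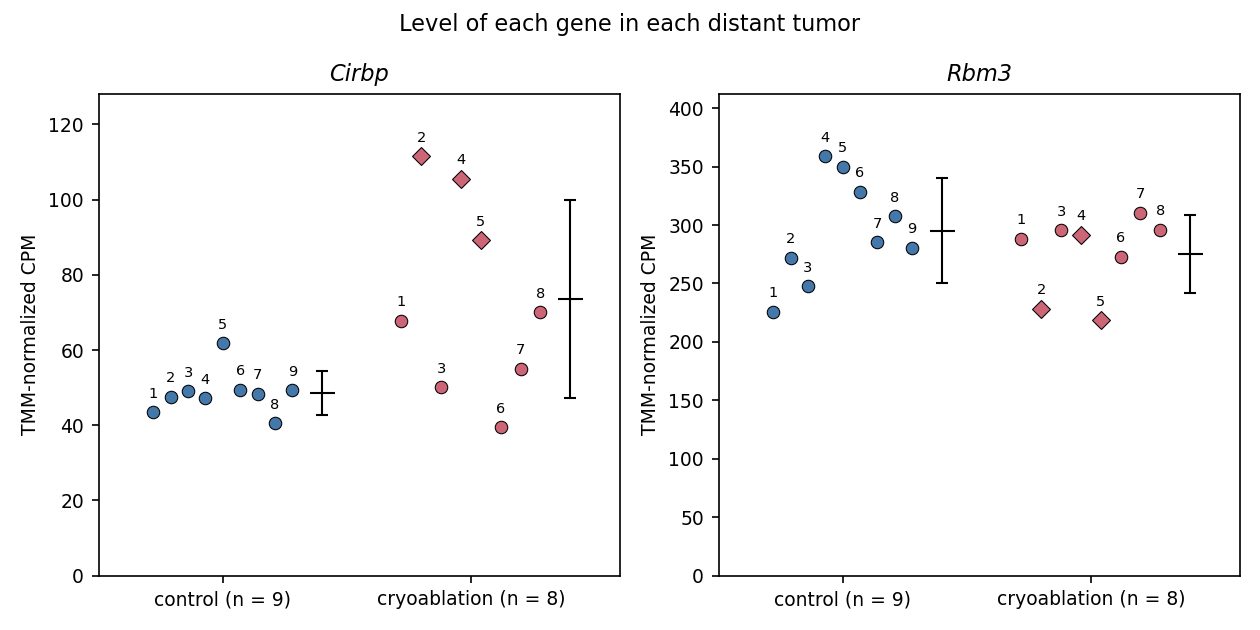
TMM-normalized CPM of Cirbp (left) and Rbm3 (right) in each tumor, numbered by replicate, with the mean and SD of each group as a bar. Diamonds are cryoablation replicates 2, 4 and 5, which have the 3 highest levels of Cirbp (89.1 to 111 CPM), whereas the ranges of Rbm3 overlap between the groups.

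Rbm3 (ENSMUSG00000031167), the more abundant member of the pair, is listed on chromosome X from 8005214 to 8012119 on the minus strand, with a length of 4698 bases. In the control group its lowest level was 226, its median 285 and its highest 359 CPM. In the cryoablation group these values were 218, 290 and 311 CPM. The ranges overlapped, and 1 cryoablation tumor was below the lowest control tumor and 0 above the highest. Control replicates 4, 5 and 6, with 359, 350 and 329 CPM, lay above the highest cryoablation tumor. Its mean came to 295 CPM (SD 45.0, n = 9) for control and 275 CPM (SD 33.7, n = 8) for cryoablation tumors, and the fitted log2 fold change was -0.10 with a standard error of 0.10.

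The lowest levels of Rbm3 in the cryoablation group were those of replicates 5 and 2, with 218 and 228 CPM. Both are among the 3 tumors with the most Cirbp. The third of these, replicate 4, had 291 CPM of Rbm3, close to the group's median. The other 5 cryoablation tumors were tightly grouped between 273 and 311 CPM, and without the 3 tumors the log2 fold change of Rbm3 was -0.02 (standard error 0.10).

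The spread of the members within groups also differed. Across the control tumors the coefficient of variation was 11.99% for Cirbp and 15.3% for Rbm3, both under the median of 18.7% over the genes tested. Across the cryoablation tumors it was 35.6% for Cirbp, above the median of 27.8% over the genes tested, and 12.2% for Rbm3, lower than in all but 9.43% of genes. Without cryoablation replicates 2, 4 and 5 the coefficient was 22.5% for Cirbp and 4.67% for Rbm3 (n = 5). With all 8 cryoablation tumors, spread was thus wider than between control tumors for Cirbp and for the median gene, and not for Rbm3.

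Under every setting tried, the log2 fold change of Cirbp was above 0 and that of Rbm3 below 0. For Cirbp it was 0.61 with DESeq2, 0.44 with limma's voom and sample weights, 0.58 with upper-quartile scaling and 0.50 once each tumor's trends over gene length and GC content were offset. For Rbm3 the same settings gave -0.10, -0.02, -0.12 and -0.04. When single tumors were omitted, the value of Cirbp was lowest (0.49) without cryoablation replicate 2 and highest (0.69) without replicate 6 of that group, and that of Rbm3 stayed between -0.14 and -0.06. Leaving out the 3 tumors that stood apart was the setting that moved Cirbp the most. Since Cirbp was selected on this contrast, its direction is not independent of the selection.

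**Figure D2:**
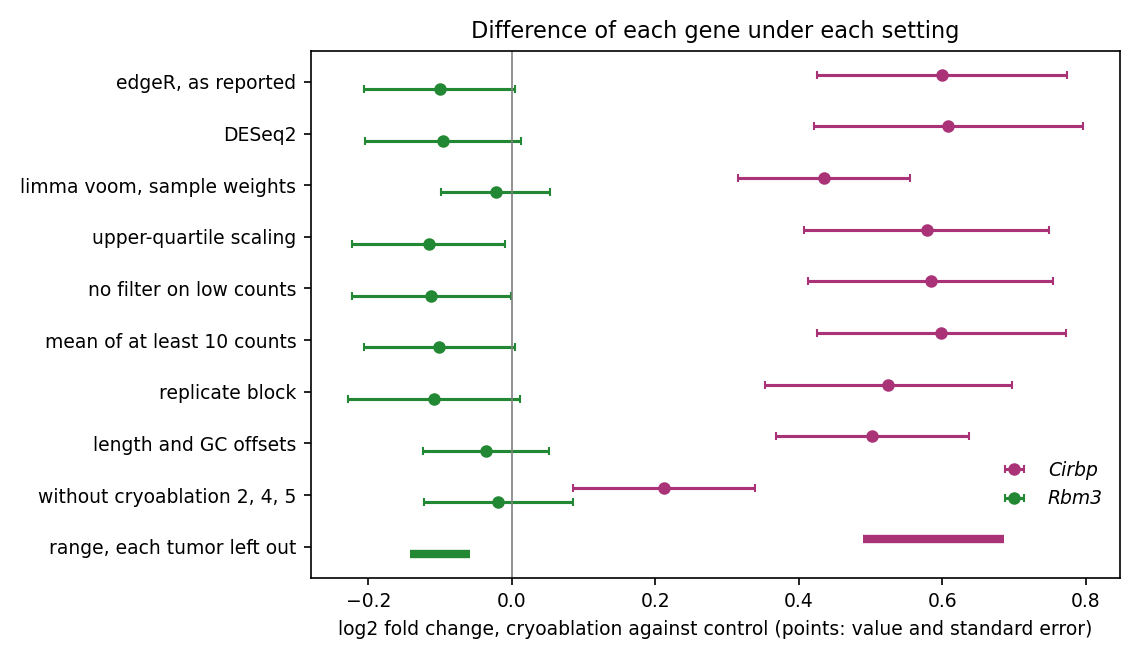
Log2 fold change of Cirbp and Rbm3 in the cryoablation group against the control group, as points with standard errors, under each setting, and as a bar for the range with each tumor left out. Cirbp stays above 0 and is lowest without cryoablation replicates 2, 4 and 5 (0.21), and Rbm3 stays within -0.14 and -0.02.

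Per kilobase of listed length, Rbm3 was the more abundant message in 17 of 17 tumors. In the control group the level was 18.6 ± 2.23 CPM per kilobase (SD, n = 9) for Cirbp and 62.8 ± 9.58 for Rbm3. These levels were higher than those of 78.2% and 94.6% of the genes tested. In the cryoablation group they were 28.2 ± 10.1 and 58.6 ± 7.17 CPM per kilobase (SD, n = 8). The listed lengths span all annotated isoforms, and the principal transcripts of Cirbp and Rbm3 have 1321 and 2792 bases. In cryoablation replicate 2, where the pair was closest, the order depends on which of these lengths is used.

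The ratio of Rbm3 to Cirbp per kilobase was 3.39 ± 0.53 in the control group (SD, n = 9), with values between 2.80 and 4.22. In the cryoablation group it was 2.37 ± 0.99 (SD, n = 8), with values between 1.14 and 3.84. The ratio was lowest in replicates 2, 5 and 4, at 1.14, 1.36 and 1.53, and in 5 of the 8 cryoablation tumors it lay under the lowest control tumor. It takes up the selected level of Cirbp and is a description. Among the pair and 24 relatives with an RNA recognition motif, ranked by level per kilobase, Rbm3 was 7th in the control group and 11th in the cryoablation group, and Cirbp 17th and 14th. In the control group Rbm3 and the next gene in that order, Ewsr1 (60.0 ± 2.97 CPM per kilobase), differed by less than the SD of Rbm3.

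Several features of annotation bear on what the counts hold. For Cirbp, 7 transcripts are annotated in GENCODE M21, of which 4 retain an intron and 1 is a target of nonsense-mediated decay. For Rbm3, 11 are annotated, 2 with a retained intron and 2 of the nonsense-mediated decay class. The counts join all of them, so that a shift between isoforms, the form in which temperature acts on several splicing events, was not measured. Rbm3 has 5 copies elsewhere that match its principal transcript over at least 200 bases at 90% identity or more, and Cirbp has 0. One of them, within Phospho2 (380 bases at 97.4% identity), is listed on its own, with at most 324 counts in a tumor beside at least 2263 for Rbm3. The copy Rbm3-ps was not analysed here. Reads from the copies may be counted with Rbm3, since how reads with several matches were handled is not given in the sources used here.

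The neighbours of the pair were looked at because closely spaced genes may share reads. Fam174c starts 157 bases past the listed end of Cirbp on the same strand, and no listed gene overlaps either member. Fam174c averaged 7.20 CPM (SD 2.10, n = 9) in control tumors and 12.3 CPM (SD 8.48, n = 8) in cryoablation tumors, and its log2 fold change was 0.76 with a standard error of 0.34. Without cryoablation replicates 2, 4 and 5 it was -0.20, unlike that of Cirbp, which kept its sign. On the other side of Cirbp, the log2 fold change was -0.12 for Midn and 0.55 for Atp5d, a subunit of ATP synthase, and beyond Fam174c it was -0.17 for Efna2. Around Rbm3, it was -0.14 for Wdr13, -0.16 for Was, -0.29 for Tbc1d25 and 0.27 for Ebp, with standard errors between 0.12 and 0.21. Without cryoablation replicates 2, 4 and 5 the direction turned for Midn (0.08), Atp5d (-0.26), Wdr13 (0.07) and Ebp (-0.17).

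Measures of the libraries moved with Cirbp in the 3 tumors that stood apart. A tumor's length trend, the slope of its expression on the log2 of gene length, was between -0.34 and -0.28 in these tumors and between -0.17 and 0.22 in the other 14, so that shorter genes had relatively more counts in them. Their TMM factors of 0.77 to 0.89 were below those of all other tumors (0.92 to 1.10). Their share of mitochondrial counts of 0.88% to 1.02% was also the lowest (others 1.19% to 1.59%). Correlations of Cirbp with these measures are given below. Beyond them, the part of these measures in the level of Cirbp was examined only by offsets for length and GC trends. With these offsets the log2 fold change of Cirbp was 0.50.

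Marker genes of other cells moved with the same tumors. The summed level of the erythroid markers was 89.4 to 173 CPM in cryoablation replicates 2, 4 and 5, against 6.16 to 74.3 CPM in the control group and 24.8 to 54.9 CPM in the other cryoablation tumors, and 4 of the 4 erythroid markers tested had an unadjusted p under 0.05, beside 4.91% of all genes tested. The summed epithelial markers were at 151 to 230 CPM in the 3 tumors and at 23.0 to 108 CPM in all others. The largest parts of that sum in the 3 tumors were Krt8, Krt18 and Krt19, with up to 58.8, 54.8 and 91.6 CPM. Not all members followed, as Cdh1 had 5.31 to 23.3 CPM there, against 7.84 to 26.2 CPM in the control group. The adipocyte markers were at 167 to 214 CPM in the 3 tumors, against 18.2 to 112 CPM in the control group and up to 185 CPM in the other cryoablation tumors, and 3 of the 5 tested had an unadjusted p under 0.05, beside the same 4.91%. The epidermal markers were at 409 to 664 CPM in the 3 tumors, against 182 to 444 CPM in the control group. In the opposite direction, and with overlap, the fibroblast markers were at 3701 to 6332 CPM in the 3 tumors, against 6046 to 8142 CPM in the control group and 6070 to 8790 CPM in the other cryoablation tumors. Those of leukocytes, 389 to 544 CPM in the 3 tumors, lay within the control range of 361 to 1091 CPM. At an unadjusted p under 0.05 were 0 of 7 epithelial, 1 of 3 epidermal, 0 of 6 fibroblast and 1 of 11 leukocyte markers tested, beside the same 4.91%. The part of these markers in the level of Cirbp was not tested.

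Whether the members follow each other from tumor to tumor was asked after the mean of each group had been subtracted. Over all 17 tumors the correlation of log2 CPM was r = -0.19 (two-sided permutation test, p = 0.442, adjusted p = 0.508 over 23 relations; Spearman's rho = -0.17, p = 0.510). Within the control group r was 0.41 (exact permutation p = 0.273, n = 9), and within the cryoablation group it was -0.51 (exact permutation p = 0.204, n = 8). The 3 tumors that stood apart form a cluster of their own, and without them r was 0.31 over 14 tumors (rho = 0.30, permutation p = 0.146, adjusted p = 0.537 over 23 relations). Without control replicate 1 and cryoablation replicate 5, the tumors farthest out on the level of Rbm3, r was -0.19. At this number of tumors, no relation between the members was detectable in either direction.

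**Figure D3:**
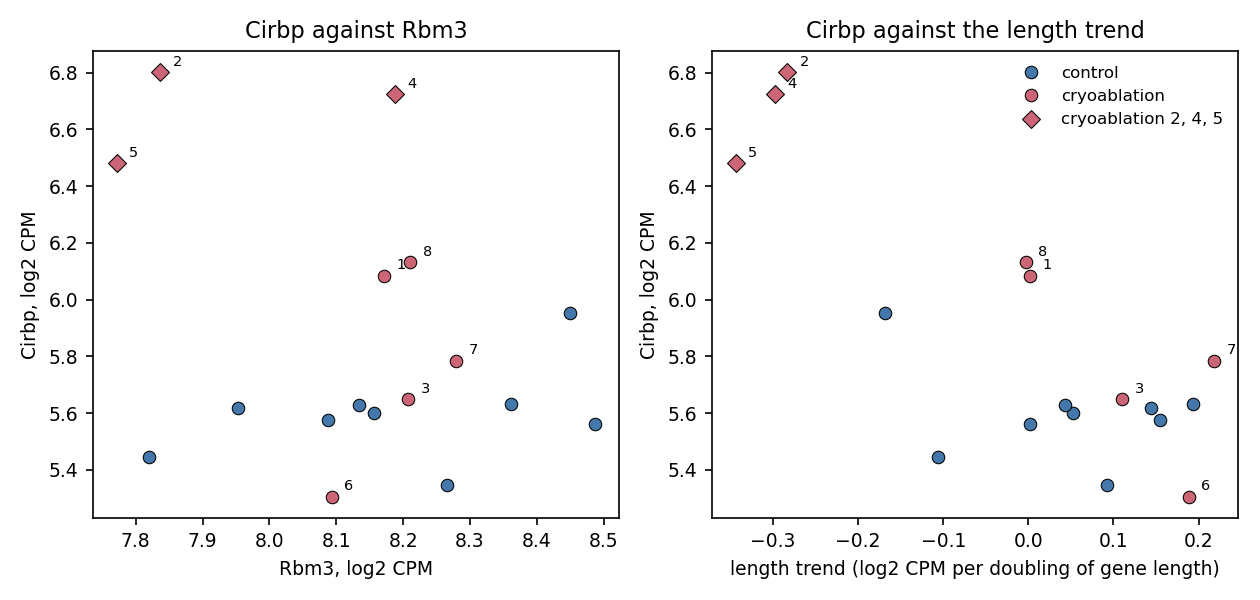
Log2 CPM of Cirbp in each tumor against log2 CPM of Rbm3 (left) and against the length trend of the tumor (right), with cryoablation tumors numbered. Cryoablation replicates 2, 4 and 5 (diamonds) lie apart at a high level of Cirbp and a length trend of -0.34 to -0.28, and among the other 14 tumors the 2 genes have r = 0.31.

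Each member was also set beside 5 measures of the libraries and the mean log2 CPM of 6 gene lists, 23 relations with that between the members. Over 17 tumors, 8 of them had an adjusted p under 0.05 for r, 5 with Cirbp and 3 with Rbm3, and 0 had one for rho. By r, Cirbp passed with the length trend (-0.82), mitochondrial share (-0.77), TMM factor (-0.76), splicing regulators (-0.72) and total count (-0.60). Without the 2 tumors farthest out on each measure, these were -0.75, -0.70, -0.69, -0.62 and -0.62. Rbm3 passed with the GC trend (-0.63), splicing regulators (0.60) and hypoxia genes (0.57), which were then -0.26, 0.27 and 0.41. Whether a relation passed rested on few tumors. Of the relations, 0 passed without cryoablation replicate 2 or replicate 3 alone, 2 without replicate 5 and 1 without replicate 7. Over the 14 tumors outside the cluster of 3, 0 of the 23 relations passed, with a smallest adjusted p of 0.464. In those 14 tumors Cirbp had r = -0.51 with the length trend (rho = -0.26, permutation p = 0.0585; without the 2 farthest tumors r = -0.54). Rbm3 had r = 0.49 with the relatives that carry an RNA recognition motif (rho = 0.47, permutation p = 0.0489; without the 2 farthest tumors r = 0.31) and r = 0.44 with the hypoxia genes (rho = 0.37, permutation p = 0.0807; without the 2 farthest tumors r = 0.50).

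The genes most like each member over the 17 group-centred log2 CPM values were not the other member. For Cirbp they were Tsen15, a subunit of the tRNA splicing endonuclease (r = 0.94), Ebpl (r = 0.89), Ccdc59 (r = 0.89), Fam71e1 (r = 0.89) and 1810058I24Rik (r = 0.89). Without the 3 tumors, r was 0.82 for Tsen15, 0.78 for Ccdc59 and between 0.66 and 0.68 for the other 3 genes. For Rbm3 they were Hsd17b12, an enzyme of fatty acid elongation (r = 0.83), the small GTPase gene Rabl3 (r = 0.82), Bcap29 of the endoplasmic reticulum (r = 0.82), Amd1 of polyamine synthesis (r = 0.78) and Polr3d, a subunit of RNA polymerase III (r = 0.77). Ranked by r with Cirbp, Rbm3 was at place 7119 of 13004 genes. These correlations are a description, and the tumors differ in the length trend and marker levels given above.

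Genes that other work ties to the pair were taken as 6 lists. Of the 24 heat shock genes, which respond to warming, 0 had an unadjusted p under 0.05, a count near the 4.91% of all genes tested, and their median log2 fold change was 0.07, beside -0.01 over all genes tested. The extremes were Hspe1, a mitochondrial chaperonin (0.42, standard error 0.22), and Hsf2, a heat shock transcription factor (-0.21, standard error 0.16). Without the 3 tumors that stood apart these values were -0.10 and 0.01. Of the 23 temperature-sensitive splicing regulators tested, 0 passed as well, also near that share (median 0.00). The splicing factor gene Srsf4 had 1.25 to 6.80 CPM in cryoablation replicates 2, 4 and 5, against 18.8 to 33.6 CPM in the control group, and its fitted log2 fold change was -0.40 (standard error 0.42), whereas Prmt1, an arginine methyltransferase, had 0.25 (standard error 0.21). Without the 3 tumors these turned to 0.14 for Srsf4 and -0.16 for Prmt1.

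Among the 24 relatives with an RNA recognition motif, 0 had an unadjusted p under 0.05, beside 4.91% of all genes tested, and the median log2 fold change was 0.07. They ran from -0.28 (standard error 0.30) for Msi1 to 0.25 (standard error 0.21) for Snrnp35, which turned to -0.15 without cryoablation replicates 2, 4 and 5. Cirbp at 0.60 lay outside this range and Rbm3 at -0.10 within it. Cirbp was selected on this contrast, so its place beyond the relatives is a description and not a test. Its value without cryoablation replicates 2, 4 and 5 was 0.21. Of the hypoxia response genes, 24 symbols with 25 table entries, 0 passed, beside the same 4.91% (median 0.09), with Egln3, a HIF prolyl hydroxylase, at 0.42 (standard error 0.24) and Epas1, which encodes HIF-2α, at -0.45 (standard error 0.33). By DESeq2 the 4 lists gave 0 genes with an unadjusted p under 0.05, beside 743 higher and 281 lower of 17819 genes. By voom they gave 0, 0, 1 and 2 genes in the order of heat shock, splicing, relatives and hypoxia. All genes by voom gave 615 higher and 697 lower of 13005. Without cryoablation replicates 2, 4 and 5 the counts in that order were 1, 0, 1 and 4, beside 325 of the 13250 genes then tested.

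Of 22 clock genes tested, whose rhythm the pair is known to affect in cultured cells, 1 was higher and 1 lower at an unadjusted p under 0.05, beside 4.91% of all genes tested in either direction. By DESeq2 they were 3, beside 743 higher and 281 lower of 17819 genes. By voom they were 5, beside 615 higher and 697 lower of 13005 genes. Fbxl21, which encodes an F-box protein that acts on cryptochromes, averaged 2.15 CPM (SD 0.60, n = 9) in control tumors and 3.26 CPM (SD 0.75, n = 8) in cryoablation tumors, and all 8 cryoablation tumors were above the control median. The fitted difference was 0.61 on the log2 scale with a standard error of 0.20 (adjusted p = 0.728 with edgeR). Npas2, a partner of BMAL1, averaged 1.40 CPM (SD 0.91, n = 9) and 0.59 CPM (SD 0.30, n = 8), and 0 of the 8 cryoablation tumors were above the control median. The fitted difference was -1.21 on the log2 scale with a standard error of 0.38 (adjusted p = 0.728 with edgeR). Both are low in these tumors, and neither passed the adjustment over all genes.

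Of 23 genes tested of the receptors and outputs of extracellular CIRBP, 2 were higher and 0 lower at an unadjusted p under 0.05, beside 3.74% and 1.17% of all genes tested. The count was 1 with DESeq2, beside 743 higher and 281 lower of 17819 genes. It was 0 with the replicate block, beside 200 higher and 239 lower of 12955 genes. With 1 tumor left out it was 1 to 5. The 5 came without cryoablation replicate 3, where 1022 genes were higher and 366 lower of 13040 tested. The 2 were the cytokine gene Il6, at 2.30 (standard error 0.87), and the chemokine gene Cxcl2, at 1.74 (standard error 0.80), both with an adjusted p of 0.728 by edgeR. Each rested on cryoablation replicate 7, with 30.6 CPM of Il6 and 76.4 CPM of Cxcl2, beside at most 1.48 and 3.80 CPM in the other cryoablation tumors. Without that tumor the log2 fold changes were -0.27 and -0.47. Replicate 7 had 55.0 CPM of Cirbp, within the control range. The receptor genes Tlr4 and Trem1 were at -0.06 (standard error 0.14) and 0.07 (standard error 0.19), and the list's median was -0.06.

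**Figure D4:**
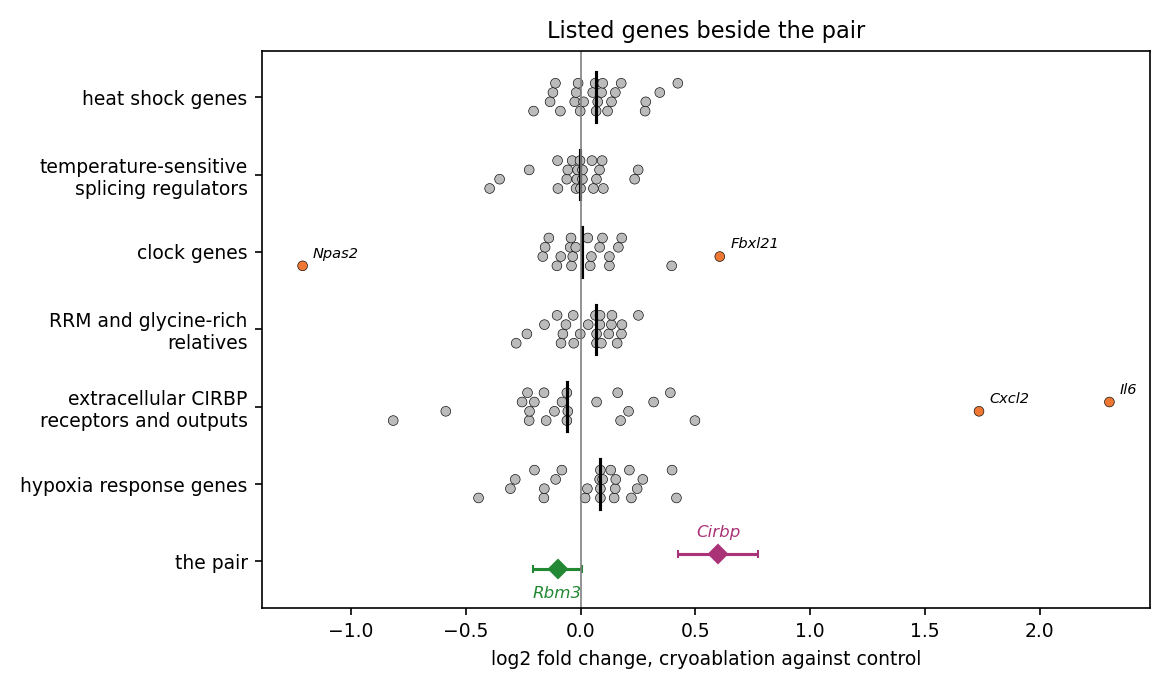
Log2 fold change of each tested gene of the 6 lists (points), with the list's median as a vertical line, and of Cirbp and Rbm3 with their standard errors (diamonds). Orange points, Npas2, Fbxl21, Il6 and Cxcl2, had an unadjusted p under 0.05, and 0 genes had an adjusted p under 0.05.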

How the data were processed

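RNA of 17 MC38 tumors was sequenced. mRNA was captured on beads, fragmented and run on a NovaSeq platform. The authors deposited a count of the reads on each gene and tumor, which is not normalized, and FPKM, which equal the count divided by the listed length and the tumor's total count, scaled by constants. The submitters' processing notes name the builds GRCm38 and mm10, but only 512 of 21827 shared genes have the start and end of GENCODE M21, so gene positions are those of the authors' table, and promoter and exon positions are of GRCm38 and are not compared with them. Aligner, counter and strandedness are not given in the sources used here.

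Cirbp and Rbm3, and the gene lists, were chosen with earlier results of these data known. Counts were normalized by TMM and tested with the quasi-likelihood F test of edgeR 4.0.16 (R 4.3.3; filterByExpr by group, group as the only term), with Benjamini-Hochberg adjustment over 13005 genes. Standard errors were taken as the ratio of a gene's log2 fold change to the root of its F. CPM are TMM-normalized, and log2 CPM used a prior count of 2. Correlations were taken after subtracting group means, with 100000 permutations within groups, or exact permutation within 1 group. The first principal component was taken from the 500 most variable genes after the variance-stabilizing transformation of DESeq2 1.42.0. Named genes were the pair, the genes of each list with an unadjusted p under 0.05 (otherwise its extremes), the 5 most alike to each member, neighbours and copies. Tlr4, Trem1, Ewsr1, Cdx2 and Krt19 were added after their values were seen. Copies were found with blastn 2.17.0 and translations aligned with Biopython 1.88. Of the list symbols, Bmal1 and Tmem173 are in the table as Arntl and Sting1, and Hlf, Elane and U2af1l4 did not pass the filter.

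Alternatives were DESeq2, limma 3.58.1 voom with sample weights, upper-quartile scaling, no filter, a minimum mean count of 10, a replicate block, offsets for gene length and GC content (natural splines with 4 degrees of freedom), leaving out cryoablation replicates 2, 4 and 5, and leaving out each tumor. The scripts were tested on simulated counts. Total counts lay between 13524899 and 17898672 per tumor, and at this depth up to 3 counts may be missed where 0 are seen, by counting error alone. Isoforms and proteins were not analysed here.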

Additional observations from a re-analysis of the deposited data

Results flagged for a closer look

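Tumors far from the others of their group were searched for in 74 sets of values (the named genes and 5 measures of the libraries, in each group), and 10 were found, where chance gives about 1 in 20 groups. Cirbp stood at 61.8 CPM in control replicate 5, beside at most 49.5 CPM in the other control tumors. The same tumor was high for Tsen15, the gene most like Cirbp (38.2 CPM, next highest 33.2), and for Ebp, a neighbour of Rbm3 (54.0 CPM, next highest 43.7). Control replicate 4 was high for the clock gene Npas2 (3.49 CPM, next highest 1.86) and for Was, a neighbour of Rbm3 (28.9 CPM, next highest 16.8). Control replicate 1 was low for Hsf2 (13.4 CPM, next lowest 18.5) and had the highest trend over GC content, 0.17 log2 CPM per 10 percentage points of GC, with the next at 0.00. Control replicate 8 was high for Msi1 (1.95 CPM, next highest 1.21). Cryoablation replicate 7 was high for Il6 (30.6 CPM, next highest 1.48) and Cxcl2 (76.4 CPM, next highest 3.80).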

How the results depend on the processing

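The log2 fold changes of Cirbp (0.21 to 0.69) and Rbm3 (-0.14 to -0.02) kept their sign under all alternatives run, and 0 genes had an adjusted p under 0.05 in any of them. The number of genes with an unadjusted p under 0.05, 639 as reported, was 1024 with DESeq2, 1312 with limma's voom, 992 with no filter on low counts and 325 without cryoablation replicates 2, 4 and 5, and with 1 tumor left out it lay between 252 (cryoablation replicate 2 omitted) and 1388 (cryoablation replicate 3 omitted). Higher and lower genes, 487 and 152 as reported, were 615 and 697 with voom, 630 and 362 with no filter, 200 and 239 with the replicate block, and 172 and 153 without cryoablation replicates 2, 4 and 5. In the lists, the count of the extracellular CIRBP genes was 1 with DESeq2, 4 with no filter and 0 with the replicate block, and 1 to 5 with 1 tumor left out. Voom gave 5 clock genes, 1 relative and 2 hypoxia genes, beside 615 higher and 697 lower of 13005 genes. The offsets gave 1 relative and 1 hypoxia gene, beside 576 higher and 153 lower of 13005 genes. Without cryoablation replicates 2, 4 and 5 there were 1 heat shock gene, 1 relative and 4 hypoxia genes. With 1 tumor left out, the counts were 0 to 2 for heat shock genes, 0 to 1 for relatives, 0 to 1 for hypoxia genes, 2 to 3 for clock genes and 0 for splicing regulators.

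The correlation of Cirbp with Rbm3 turned to 0.24 with the offsets and to 0.31 without cryoablation replicates 2, 4 and 5, and ranged from -0.31 to -0.03 with 1 tumor left out. With the replicate block it was -0.22, the log2 fold changes were 0.52 for Cirbp and -0.11 for Rbm3, and 439 genes had an unadjusted p under 0.05. The labels do not say whether the replicate numbers pair the tumors. Correlations of same-numbered tumors ran from -0.51 to 0.64, and 2 of 8 cryoablation tumors were most like the control tumor of their own number. Likeness of expression alone cannot decide how tumors were collected or processed. The count of relations with tumor measures at an adjusted p under 0.05, 8 as reported, was 0 without cryoablation replicates 2, 4 and 5 and 0 to 9 with 1 tumor left out, both alternatives chosen after seeing the data.

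Without cryoablation replicates 2, 4 and 5 the log2 fold change turned to -0.10 for Hspe1, 0.011 for Hsf2, -0.16 for Prmt1, 0.14 for Srsf4, -0.15 for Snrnp35, 0.072 for Wdr13, -0.17 for Ebp, -0.26 for Atp5d, 0.083 for Midn and -0.20 for Fam174c. Il6 and Cxcl2 turned to -0.23 and -0.44 with DESeq2, to -0.50 and -0.10 with voom, and to -0.27 and -0.47 without cryoablation replicate 7 (with other tumors left out, at most 2.49 and 1.96). Was turned to 0.029 without control replicate 4 (lowest -0.25). The cause of these shifts was not tested. The depth leaves a counting error of at most 4.15% for Cirbp and 2.10% for Rbm3, well under the spread between tumors.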
